A study of Mus musculus with 4 samples.

Results

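Genes of epithelial and endothelial cell junctions were followed in spatial transcriptomic sections of mouse lung. The 10 genes were Cdh1, Cdh5, Cldn3, Cldn4, Cldn5, Cldn7, Cldn18, Ocln, Tjp1 and F11r. They were taken by name, without regard to any measured value, from the 32285 genes in each deposited count table, and all 10 were found in all 4 tables. Vaped (V) mice were C57BL/6J mice that breathed aerosol of a Peach Ice liquid of 70% vegetable glycerin and 30% propylene glycol from JUUL pens, in whole-body chambers, during 9 weeks of 5 exposure days each, with 4 h of exposure a day, starting at about 8 weeks of age. Non-Vaped (NV) mice were C57BL/6J mice of the same study without this exposure. Each group held 1 male and 1 female, and each mouse gave 1 section of 10 µm. P-values between V and NV mice therefore measure the spread between mice with 1 section each. Those between groups of spots of the same sections measure how the difference within a section varies between mice. Every section lay on a Visium slide, whose spots of 50 µm capture the mRNA of several cells and tag each molecule with a unique molecular identifier (UMI).

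Junctions seal neighbouring cells to each other. Claudins, occludin (Ocln) and junctional adhesion molecule A (F11r) span the membrane at tight junctions, and the scaffold ZO-1 (Tjp1) ties them to actin. Cadherins hold adherens junctions together, with E-cadherin (Cdh1) in epithelium and VE-cadherin (Cdh5) in endothelium. In the lung, claudin-18 (Cldn18) is known from alveolar epithelium and claudin-5 (Cldn5) mainly from endothelium, whereas claudin-3 (Cldn3), claudin-4 (Cldn4) and claudin-7 (Cldn7) are epithelial claudins. Type 1 alveolar (AT1) cells are the thin cells of gas exchange, and type 2 alveolar (AT2) cells secrete surfactant.

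The sections held 473 to 2053 spots and 6957392 to 34308556 UMIs, the most in the V female. Spots were assigned to the parenchyma where 5 markers (Sftpc, Sftpb, Hopx, Tmem100 and Calcrl), none of them a junction gene, together reached 50% of their pooled share of UMIs. All other spots were assigned to the upper airway. The authors name the upper pulmonary branches as the tissue, but parenchyma made up 682 of 842 spots of the NV male, 348 of 473 of the NV female, 1617 of 2053 of the V female and all except 1 of 1565 of the V male. The V male section therefore stood apart, with no usable upper airway. Of the upper airway spots, 138 and 49 of the NV male and female and 144 of the V female were cardiac muscle spots, with at least 10000 raw CPM (UMIs per 1000000 UMIs of the same spots, unscaled) from cardiac markers, so the upper airway region also held heart tissue. Barcodes recur between sections, 233 of 2583 of them in all 4.

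On GRCm38, Cldn3 (ENSMUSG00000070473, chr5:134986214-134987472, plus strand) and Cldn4 (ENSMUSG00000047501, chr5:134945119-134946934, minus strand) lay 39279 bases apart. Cldn18 (ENSMUSG00000032473) lay at chr9:99689461-99717267 on the minus strand and Cldn5 (ENSMUSG00000041378) at chr16:18776847-18778262 on the plus strand. Cdh1 and Cdh5 lay on chromosome 8, Cldn7 on 11, Ocln on 13, Tjp1 on 7 and F11r on 1. RefSeq promoter windows on GRCm38.p6, from 250 bases before to 50 after a start site, matched 8 of the 10 genes in 11 windows, while Cdh1 and Cdh5 had no entry. Windows of Cldn18, Cldn3 and Cldn5 are shown because these genes led the AT1-rich, AT2-rich and endothelium-rich spots described next. Cldn18 has 2 start sites, 7204 bases apart, which counts of UMIs per gene do not tell apart. Capitals mark matches on either strand to an E-box (CAGGTG or CAGCTG), an NKX2 core (CAAGTG), a FOX core (TGTTTAC), an ETS core (CCGGAA) or a TATA box (TATAAA).
Cldn18, first start site, chr9:99717218-99717517, minus strand: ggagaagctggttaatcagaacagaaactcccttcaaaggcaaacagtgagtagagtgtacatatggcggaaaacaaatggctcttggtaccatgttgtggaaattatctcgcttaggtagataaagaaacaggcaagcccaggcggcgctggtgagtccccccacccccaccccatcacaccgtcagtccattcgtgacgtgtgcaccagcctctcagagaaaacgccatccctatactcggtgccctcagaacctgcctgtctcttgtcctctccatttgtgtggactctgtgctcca
Cldn18, second start site, chr9:99710014-99710313, minus strand: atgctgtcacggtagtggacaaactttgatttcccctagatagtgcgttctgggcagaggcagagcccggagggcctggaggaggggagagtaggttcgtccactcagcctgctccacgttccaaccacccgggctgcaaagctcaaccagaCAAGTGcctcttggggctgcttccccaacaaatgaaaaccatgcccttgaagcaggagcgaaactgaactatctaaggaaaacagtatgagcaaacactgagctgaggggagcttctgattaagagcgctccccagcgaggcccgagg
Cldn3, chr5:134985964-134986263, plus strand: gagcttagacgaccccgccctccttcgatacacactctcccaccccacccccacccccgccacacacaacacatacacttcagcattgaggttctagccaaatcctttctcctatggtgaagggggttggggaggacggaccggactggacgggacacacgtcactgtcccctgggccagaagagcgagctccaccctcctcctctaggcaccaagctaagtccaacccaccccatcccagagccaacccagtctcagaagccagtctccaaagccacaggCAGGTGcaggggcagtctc
Cldn5, chr16:18776597-18776896, plus strand: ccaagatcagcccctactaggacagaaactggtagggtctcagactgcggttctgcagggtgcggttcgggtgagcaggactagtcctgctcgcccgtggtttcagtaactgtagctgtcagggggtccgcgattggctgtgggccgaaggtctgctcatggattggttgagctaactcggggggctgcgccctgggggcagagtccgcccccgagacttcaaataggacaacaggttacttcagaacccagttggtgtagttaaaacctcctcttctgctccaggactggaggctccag
The second Cldn18 window held 1 NKX2 core on the strand of the gene, a motif found in 13.6% of all 32851 promoter windows. The Cldn3 window held 1 E-box CAGGTG just after its start site, a motif found in 20.2% of windows. The first Cldn18 window and the Cldn5 window held no match. A match of letters is a description and not a bound site.

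Levels of the junction genes were first set side by side in the parenchyma, which all 4 sections held. In raw CPM, Cldn18 had 392.5 and 450 in the NV male and female and 440 and 545 in the V male and female. Cldn5, in the same order of mice, had 451, 494, 535 and 456. Cdh5 had 437, 490, 515 and 445, in the same order of sections as Cldn5. Cdh1 had 157, 128, 154 and 123, so that both males lay above both females. Cldn3 had 116, 99.2, 96.8 and 92.7. Among the 9 genes other than Cldn4, the highest section lay 1.18 to 1.58 times above the lowest, with Cdh5 the most even and F11r the least. Cldn4 was nearly absent, as described further on.

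**Figure D1:**
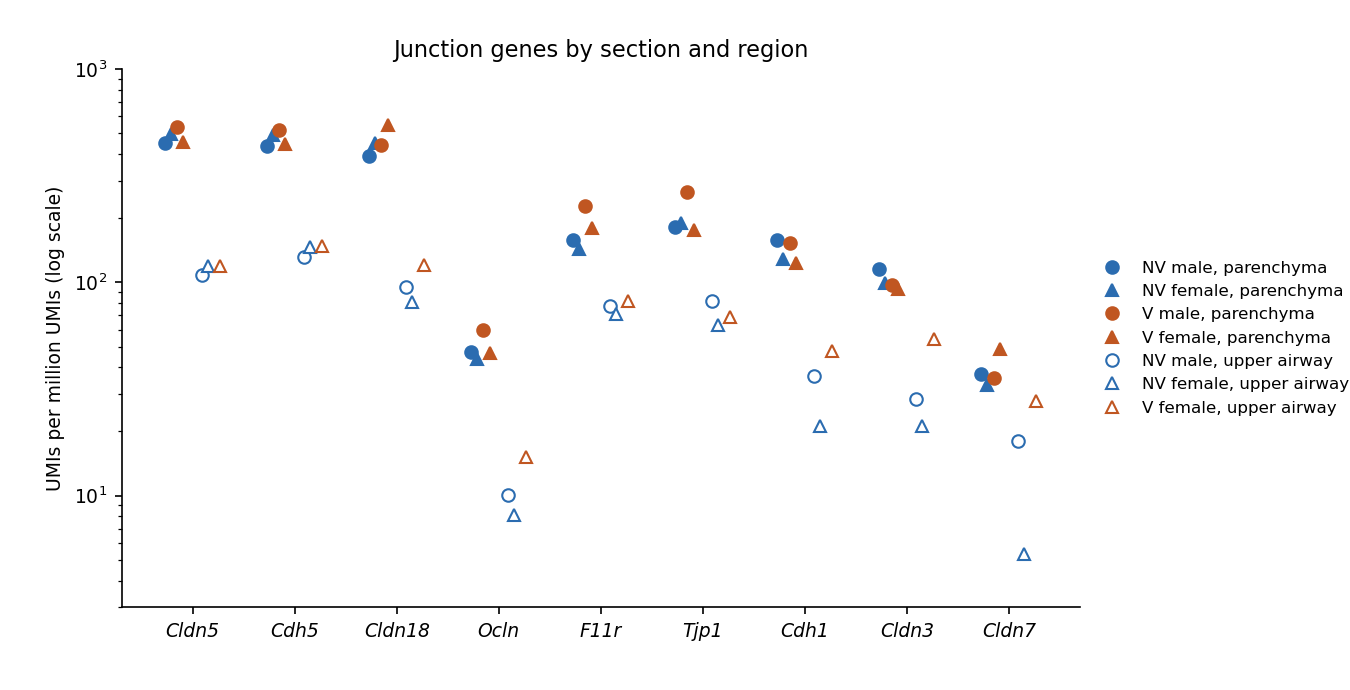
Raw CPM (UMIs per 1000000 UMIs) on a log axis for 9 junction genes, 1 point per section, filled in the parenchyma and open in the upper airway, with NV sections in blue, V sections in orange, males as circles and females as triangles. Every open point lies under the filled point of the same gene and section, and the V male has no open point because its section held 1 upper airway spot.

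To see which cells the junction genes follow, the 10% of spots of each section with the highest score for AT1, AT2, endothelial, club or ciliated cell markers were summed and compared with the rest of the same section. Members of the marker lists were left out of the tests, and no junction gene is one of them. The test was edgeR's quasi-likelihood test with mouse as a block, and a gene was called where its p-value, adjusted by the Benjamini-Hochberg method, was under 0.05 and its log2 fold change exceeded 0.25 in either direction. Values per section are CPM scaled by TMM, edgeR's scaling between libraries, and written as CPM alone. Cldn4 did not pass the filter on low counts in any comparison, so 9 of 10 genes were tested. In sums over spots, more cells of a type and more RNA per cell cannot be told apart.

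AT1-rich spots held more Cldn18, Ocln, F11r, Cdh1 and Tjp1 than the rest of the section. These 5 of 9 tested genes were called higher, against 3.05% of all 12976 genes tested, and none was called lower. Cldn18 had 312, 265, 411 and 365 CPM in the rest of the NV male, NV female, V male and V female sections, and 529, 591, 555 and 692 in their AT1-rich spots. It was higher in all 4 sections, and least so in the V male. Its log2 fold change was 0.81 (SE 0.11, adjusted p = 0.00019, edgeR). The log2 fold changes of the other called genes were 0.66 for Ocln, 0.63 for F11r, 0.54 for Cdh1 and 0.41 for Tjp1. Cldn3, by contrast, had a log2 fold change of 0.02 (95% interval -0.21 to 0.25) and was not called. Upper airway spots made up 0.071% to 29.3% of the rest but at most 0.976% of the AT1-rich spots of any section. Within parenchyma spots alone, Cldn18 (0.50), F11r (0.45), Ocln (0.37) and Cdh1 (0.28) were still called, whereas Tjp1 (0.20) was not. Without the V female only Cldn18 (0.76) and F11r (0.57) were called, without the NV female Cldn18 (0.71), F11r (0.55) and Cdh1 (0.49), and without the V male 8 of 9 genes were. Calls over all genes moved as well, from 430 to 2379 with each mouse left out, beside 396 higher and 972 lower with all 4 mice. Without mouse as a block, 0 genes were called in any comparison of marker-rich spots.

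AT2-rich spots held more Cldn3, Cldn7 and Cdh1. These 3 of 9 genes were called higher, against 1.63% of all genes tested. Cldn3 had 96.0, 61.7, 93.0 and 81.9 CPM in the rest of the NV male, NV female, V male and V female sections, and 148, 134, 118 and 124 in their AT2-rich spots, so it was higher in all 4 and the groups did not overlap. The log2 fold change of Cldn3 was 0.63 (SE 0.11, adjusted p = 0.0019, edgeR), that of Cldn7 was 0.55 and that of Cdh1 was 0.51. F11r, at 0.05 (95% interval -0.15 to 0.25), was not called there. Within parenchyma spots Cldn3 (0.45) and Cldn7 (0.40) were called and Cdh1 (0.21) was not, and only Cldn3 was called without the NV male, the NV female or the V female in turn. Thinned to 3000 UMIs per spot, Cldn3 (0.24) and Cldn7 (0.41) were not called.

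Endothelium-rich spots held more Cldn5 and Cdh5, and no other junction gene of the 9 was called. Against these 2 of 9, 2.51% of all genes tested were called higher. Cldn5 had 366, 312, 509 and 318 CPM in the rest of the NV male, NV female, V male and V female sections, and 565, 614, 565 and 551 in their endothelium-rich spots. The V male again had the smallest rise, and the rest of its section was the highest of the 4. Log2 fold changes were 0.63 (SE 0.12, adjusted p = 0.0028, edgeR) for Cldn5 and 0.56 (SE 0.12, adjusted p = 0.0063) for Cdh5. Within parenchyma spots they were 0.33 and 0.32 and both were called. Neither was called without the NV female or without the V female, where the log2 fold changes of Cldn5 were 0.52 and 0.55, and Cdh5 (0.58) was not called without the NV male either. Without the V male 6 of 9 genes were called. With each mouse left out, calls over all genes ran from 192 to 2612, beside 326 higher and 986 lower with all 4 mice.

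**Figure D2:**
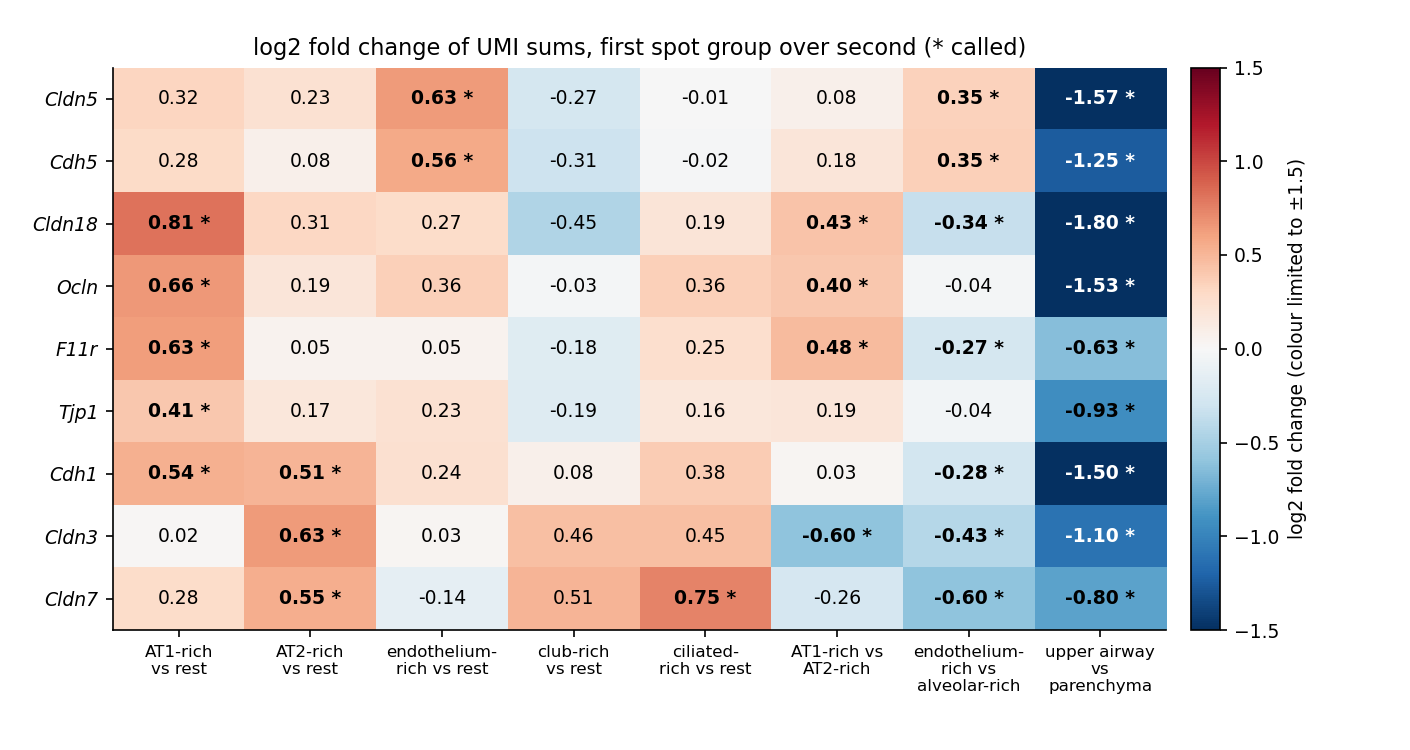
Log2 fold changes of 9 junction genes (rows) in 8 comparisons of spot groups (columns), with red for higher and blue for lower in the first group and a star for called genes. Stars for Cldn18, Ocln, F11r and Tjp1 stand under AT1-rich spots, those for Cldn3 and Cldn7 under AT2-rich spots, a further one for Cldn7 under ciliated-rich spots, those for Cldn5 and Cdh5 under endothelium-rich spots and those for Cdh1 under both alveolar types, and all 9 genes are lower in the upper airway.

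A call in 1 spot group and not in another does not show that they differ, so AT1-rich spots were set directly against AT2-rich spots, a comparison chosen after the data had been seen. F11r, Cldn18 and Ocln were higher in AT1-rich spots, against 2.21% of all 10558 genes tested, and Cldn3 was higher in AT2-rich spots, against 2.19%. F11r had 156, 126, 225 and 190 CPM in AT2-rich spots of the NV male, NV female, V male and V female, and 225, 227, 293 and 256 in AT1-rich spots. It was higher in the AT1-rich spots of every mouse, while the highest AT2-rich value (224.7, V male) all but met the lowest AT1-rich value (224.9, NV male), with a log2 fold change of 0.48 (SE 0.07, adjusted p = 1.2e-06, edgeR). Cldn18 differed by 0.43 (SE 0.05, adjusted p = 6.2e-09) and Ocln by 0.40 (SE 0.13, adjusted p = 0.045). Cldn3 had 153, 141, 125 and 133 CPM in AT2-rich spots and 111, 88.5, 95.5 and 76.0 in AT1-rich spots, with no overlap between the groups. Its log2 fold change was -0.60 (SE 0.10, adjusted p = 3.9e-06). Cdh1 differed by 0.03 (95% interval -0.12 to 0.18) between the alveolar types. F11r, Cldn18 and Cldn3 were called with each mouse left out, whereas Ocln was called only without the V male (0.53). With each spot thinned to 3000 UMIs, F11r (0.48) and Cldn18 (0.38) were called, and Cldn3 (-0.19) and Ocln (0.71) were not.

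Endothelium-rich spots were set directly against spots rich in AT1 and AT2 markers together, also after the data had been seen. Cdh5 and Cldn5 were higher, against 1.23% of all 10453 genes tested, and Cldn7, Cldn3, Cldn18, Cdh1 and F11r were lower, against 1.43%. Cldn5 had 471, 480, 533 and 484 CPM in alveolar-rich spots of the NV male, NV female, V male and V female, and 641, 672, 615 and 614 in endothelium-rich spots, so that the groups did not overlap. Cldn5 and Cdh5 both had a log2 fold change of 0.35 (SE 0.05, adjusted p = 1.6e-08 and 2.3e-08, edgeR). The log2 fold changes of the epithelial genes were -0.60 for Cldn7, -0.43 for Cldn3, -0.34 for Cldn18, -0.28 for Cdh1 and -0.27 for F11r. With each mouse left out Cldn7 ran from -0.71 to -0.30, and at -0.30, without the V female, it was not called. F11r was not called without the V female (-0.23) or the V male (-0.29), nor Cdh1 without either of them or without the NV male (-0.25). Tjp1 (-0.04, 95% interval -0.18 to 0.09) and Ocln (-0.04, 95% interval -0.28 to 0.21) were not called. With each spot thinned to 3000 UMIs none of the 9 was called, and Cldn5 and Cdh5 had log2 fold changes of 0.15 and 0.29.

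**Figure D3:**
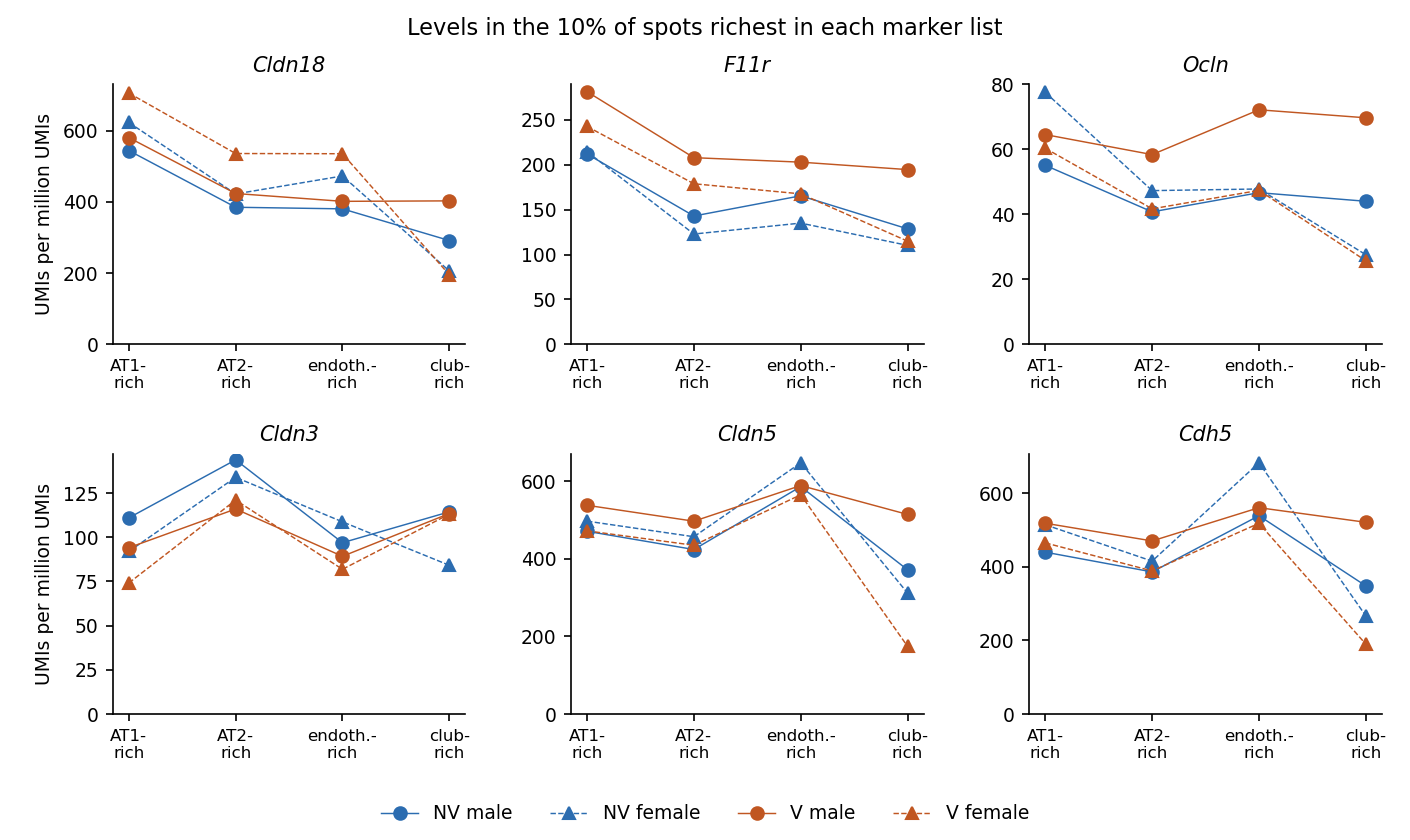
Raw CPM (UMIs per 1000000 UMIs) of 6 junction genes in the 10% of spots of each section richest in AT1, AT2, endothelial and club cell markers, 1 line per section with NV in blue and V in orange. Cldn18 and F11r peak in AT1-rich spots of every section, Cldn3 in AT2-rich spots and Cldn5 and Cdh5 in endothelium-rich spots, while the V male lines are the flattest for Cldn5 and Cdh5.

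Club and ciliated cells line the airways. The V male gives little on them, with club markers at 336 raw CPM in its parenchyma against 1378 to 14567 in the other sections, and 5 of 8 ciliated markers seen. In club-rich spots 0 of 9 genes were called by edgeR and 0 by DESeq2, while edgeR called 0.767% of all genes higher. At the looser threshold of an unadjusted p under 0.05 there were 4 of the 9, a count that cannot be set against that share. Cldn7 (log2 fold change 0.51, 95% interval 0.21 to 0.81) and Cldn3 (0.46, 95% interval 0.22 to 0.69) had the highest values there and Cldn18 (-0.45, 95% interval -0.75 to -0.15) the lowest. Without the V female, Cldn7 had 0.32 and Cldn18 -0.23, and within parenchyma spots Cldn7 had 0.14 and Cldn18 -0.23. In ciliated-rich spots Cldn7 was the only one of 9 genes called, against 1.31% of all genes called higher. It had 30.8, 19.1, 33.5 and 38.0 CPM in the rest of the NV male, NV female, V male and V female sections, and 53.5, 46.0, 32.2 and 74.7 in their ciliated-rich spots. The V male alone showed no rise, and the log2 fold change was 0.75 (SE 0.17, adjusted p = 0.033, edgeR). Cldn7 was not called in ciliated-rich spots without the NV male (0.76), the NV female (0.67) or the V female (0.57), or within parenchyma spots (0.20).

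Spots rich in AT1 and AT2 markers were compared with those rich in club and ciliated markers. Cldn18 was the only one of 9 junction genes called, against 0.374% of all 10174 genes called higher. It had 331, 348, 423 and 241 CPM in airway-rich spots of the NV male, NV female, V male and V female, and 504, 609, 548 and 665 in their alveolar-rich spots. It was higher in all 4 sections, with a log2 fold change of 0.83 (SE 0.16, adjusted p = 0.023, edgeR). It was not called without the NV male (0.89), without the NV female (0.83) or with spots thinned to 3000 UMIs (0.57). In the V female 73.5% of airway-rich spots lay in the upper airway, against 0% to 22.0% in the other sections.

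Cldn4 gave 49 UMIs in all, of which 47 were in the V female, 1 in each NV mouse and 0 in the V male. A count of 0 in the V male allows a level of up to 0.253 raw CPM, while the V female had 1.37 raw CPM. Of the 49 UMIs, 31 lay in the 492 club-rich spots among 4933 spots, and 27 lay in the 492 ciliated-rich spots. In the V female 29 UMIs fell in 205 club-rich spots, a level of 5.0 raw CPM, and 18 in the other 1848 spots, a level of 0.631 raw CPM. The single UMI of the NV male and that of the NV female also lay in club-rich and in ciliated-rich spots. These counts describe the sections, and without the filter on low counts edgeR called Cldn4 higher in club-rich and ciliated-rich spots. Upper airway spots made up 76.1% of the club-rich spots of the V female against 0% to 42.6% in the other sections, and their part in the count of Cldn4 was not tested.

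Other junction genes were taken from 7 lists of 79 genes, of which 77 were in the tables. Apart from the largest changes in endothelium-rich spots, the genes named from them here were chosen after their values were seen. In AT1-rich spots 9 of 15 tested genes of the tight junction plaque were called higher and 0 lower, with a median log2 fold change of 0.46 over the list beside -0.01 over all genes. Of all genes, 3.05% were called higher and 7.49% lower. In the same spots 3 of 9 genes of the tight junction membrane were called higher and 0 lower, 2 of 15 of the adherens junction higher and 1 lower, 2 of 9 of the desmosome higher and 2 lower, and 0 of 7 other claudins higher and 1 lower. Of 9 genes of the endothelial junction and 5 of the gap junction, none was called by edgeR. The largest rises in any list were those of Pard6b (0.86), Magi3 (0.76), Igsf5 (0.74), Nectin3 (0.71) and Cxadr (0.64). Pard6b is a polarity protein of the PAR complex, Magi3 a scaffold, Nectin3 an adherens junction receptor, and Igsf5 and Cxadr are immunoglobulin-like proteins of tight junctions. Within parenchyma spots 7 of 15 plaque genes were called higher and 0 lower, against 2.41% of all genes called higher, among them Magi3, Pard6b and the atypical protein kinase C genes Prkci and Prkcz. The 4 genes called lower in AT1-rich spots, Dsc2 (-1.61), Dsg2 (-1.26), Cldn10 (-1.15) and Cdh2 (-1.08), were not called within parenchyma spots. Dsc2, Dsg2 and Cdh2 are cadherins of cardiac muscle junctions, and cardiac marker UMIs were 21961 to 30856 raw CPM in cardiac muscle spots against 19.5 to 4255 in the parenchyma. The part of heart tissue in the values of these genes was not tested.

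Of 64 genes of these lists tested in AT2-rich spots, Igsf5 (0.69) and the adhesion molecule Epcam (0.57) were called higher, against 1.63% of all genes, and Dsc2, Cdh2, Dsg2, Cdh13 and Jam2 lower, against 5.94%. Within parenchyma spots Epcam alone of 62 was called higher, against 1.21% of all genes, and edgeR called 0 lower. In endothelium-rich spots 5 of 8 tested genes of the endothelial junction list were called higher and 1 lower, with a median of 0.40 beside 0.00 over all genes, of which 2.51% were called higher and 7.6% lower. They were Icam2 (0.61), Esam (0.47), the angiopoietin receptor Tek (0.42), Mcam (0.41) and the phosphatase Ptprb (0.38), and Jam3 (-0.84) was the one called lower. Of these, Icam2, Esam and Mcam were called within parenchyma spots, where 0.741% of all genes were called higher. Over all lists, the 5 largest falls were those of Dsc2 (-1.64), Cdh2 (-1.22), Jam3, the desmosomal Perp (-0.72) and the gap junction protein Gja1 (-0.69), none of them called within parenchyma spots. Of 67 genes of the 7 lists tested in club-rich spots, Cldn10 alone was called (log2 fold change 1.87, SE 0.34, adjusted p = 0.021, edgeR), against 0.767% of all genes called higher. Cldn10 was also the only 1 of 67 called in ciliated-rich spots (1.59, adjusted p = 0.013, edgeR), a share much like the 1.31% of all genes called higher. In the NV female it was lower there, with 6.003 CPM from 3 UMIs against 7.76 in the rest. The V male had 2 UMIs of Cldn10 in ciliated-rich spots. Within parenchyma spots 0 of 62 list genes were called in ciliated-rich spots. Over whole sections, UMIs of Cldn10 numbered 75 and 51 in the NV male and female and 12 and 352 in the V male and female. In club-rich spots it had 30.01, 12.0, 0 and 33.1 CPM, and in the rest 5.89, 7.14, 1.05 and 6.80, so it was higher in 3 of 4 sections and 0 in those of the V male.

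The upper airway held less of all 9 tested junction genes than the parenchyma of the same mice, both NV mice and the V female. All 9 were called, against 18.7% of all 13416 genes called lower. Upper airway spots had been assigned by low levels of AT1, AT2 and endothelial markers. Lower levels of genes of those cells therefore follow in part from the rule. The log2 fold change was -1.80 for Cldn18, -1.57 for Cldn5, -1.53 for Ocln, -1.5 for Cdh1 and -1.25 for Cdh5, and -0.63 to -1.10 for Cldn3, Tjp1, Cldn7 and F11r. Cldn18 had 348, 385 and 493 CPM in the parenchyma of these 3 mice and 119, 91.8 and 143 in the upper airway, with no overlap. Cldn3 had 103, 84.9 and 84.0 against 35.6, 24.3 and 64.8, the upper airway of the V female being the nearest to its parenchyma. Cldn7 (-0.80, adjusted p = 0.029, edgeR) lost its call without the NV female (-0.46). Of 65 genes of the junction lists tested there, 31 were called lower and 15 higher, the latter against 22.6% of all genes. Those called lower included Pard6b (-1.69), Nectin3 (-1.64) and the polarity protein Crb3 (-1.51), and those called higher included Dsc2 (2.74), Cldn22 (2.47), Dsg2 (2.11) and Cdh2 (2.0).

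Heart tissue was part of that comparison, so levels in cardiac muscle spots were set beside those of the parenchyma. In cardiac muscle spots AT2 markers stood at 18.9%, 12.2% and 18.8% of their parenchyma level in the NV male, the NV female and then the V female, although heart muscle has no AT2 cells. Cldn18 stood at 22.6%, 14.5% and 20.1%, and Cdh1 at 19.5%, 14.8% and 28.3%. Cldn3 stood at 19.0%, 14.8% and 44.5%, Cldn7 at 33.2%, 9.27% and 39.5%, and Ocln at 23.8%, 15.3% and 23.1%. F11r stood at 50.0%, 51.8% and 45.7%, and Tjp1 at 44.4%, 34.6% and 43.3%. Every tested junction gene stood above the AT2 markers in all 3 sections, except Cldn7 in the NV female. Some margins were small, as for Cldn3 in the NV male. Cardiac muscle spots were upper airway spots, which had been assigned by low levels of AT1, AT2 and endothelial markers. The markers of that rule together stood at 19.2%, 12.6% and 19.2%. The part of the rule in the levels of these marker lists was not tested, so a gene above or below them is a description only. AT1 markers stood at 25.8%, 18.1% and 25.8%. F11r and Tjp1 lay above the AT1 markers in every section, and Cldn18 and Ocln below them. Cdh1 lay above them only in the V female. Cdh5, at 29.5%, 26.1% and 34.2%, was close to the endothelial markers at 31.8%, 25.7% and 32.9%. Cldn5, at 22.4%, 18.04% and 24.2%, was below the endothelial markers in all 3 sections. In the remaining upper airway spots Cldn18 had 153 and 96.8 raw CPM in the NV male and female and 125 in the V female, which was below its parenchyma level in each. Cldn7 was an exception in the NV male, with 67.7 raw CPM in 22 such spots against 37.0 in the parenchyma, while the NV female and V female had 7.74 and 31.3 there.

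The share of spots with a UMI was compared at equal depth. With spots thinned to 3000 UMIs, which left out 39 to 219 shallower parenchyma spots per section, Cldn5 was seen in 72.1%, 74.1%, 79.2% and 74.0% of parenchyma spots of the NV male, NV female, V male and V female. Cldn18 was seen in 64.9%, 66.7%, 71.5% and 78.8%, and Cdh1 in 37.0%, 33.3%, 35.0% and 31.6%. Exact 95% binomial intervals for Cdh1, which cover counting error only, were 33.1% to 40.9%, 28.1% to 38.9%, 32.5% to 37.6% and 29.2% to 34.1%. In cardiac muscle spots of the NV male and V female, as a background at median depths of 8975.5 and 33126 UMIs before thinning against 9866.5 and 9061 in the parenchyma, Cldn18 was seen in 28.4% and 21.5% and Cdh1 in 7.34% and 10.4%. Without thinning, Cdh1 was seen in 66.3%, 65.8%, 59.5% and 63.3% of parenchyma spots.

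The question of the study was what vaping does to the lung. Its authors saw stronger E-cadherin labelling in trachea sections of vaped mice, and then reported more E-cadherin protein on immunoblots of their lung tissue. Transcripts in parenchyma spots are another measure, from fewer mice, and cannot decide on that protein level. At the level of transcripts, none of the 9 tested junction genes was called between V and NV mice in the parenchyma. In this comparison 0% of all 14348 genes were called by edgeR, with 380 at an unadjusted p under 0.05 and 9 called by DESeq2. Of the 9 junction genes, 0 were at an unadjusted p under 0.05 and 0 were called by DESeq2. Cdh1 had 160 and 126 CPM in the NV male and female and 152 and 126 in the V male and female, so the groups overlapped. Its log2 fold change was -0.04 with a 95% interval of -0.56 to 0.47, which is 0.68 to 1.39 as a fold. Cdh5 (0.06, interval -0.39 to 0.51) and Cldn5 (0.08, interval -0.38 to 0.53) had intervals of much the same width.

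F11r had the highest log2 fold change of the junction genes in the parenchyma, 0.43 (SE 0.19, 95% interval -0.05 to 0.92, unadjusted p = 0.071, adjusted p = 0.999, edgeR). It had 161 and 141 CPM in the NV male and female, and 225 and 183 in the V male and female. Both V mice lay above both NV mice, as for 15.6% of all genes tested. Without the V female F11r was called (0.58), as were 1464 of all genes, and without the V male it had a log2 fold change of 0.28 and was not. With 1 V mouse left out the V arm is a single mouse, taken to vary as the NV mice did. All 8 AT1 markers had UMIs in every section, and their summed level in the parenchyma was 4637 and 4767 raw CPM in the NV male and female and 7096 and 5685 in the V male and female. Per 1000 AT1 marker UMIs, F11r had 34.2 and 30.1 UMIs in the NV mice and 32.1 and 31.5 in the V mice, so the groups overlapped on that scale. The part of AT1 marker level in the F11r values was not tested.

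Cldn3 was the only junction gene with both V mice below both NV mice in the parenchyma, as for 16.2% of all genes. It had 118 and 97.4 CPM in the NV male and female and 95.7 and 94.8 in the V male and female, a log2 fold change of -0.18 (95% interval -0.59 to 0.24). Tjp1 was high in 1 mouse, with 262 CPM in the V male against 185 and 187 in the NV male and female and 180 in the V female. Cldn7 and Cldn18 had their highest values, 49.5 and 557 CPM, in the V female, and the other 3 sections spanned 32.3 to 37.5 and 398 to 442. Ocln was highest in the V male, at 59.3 against 43.0 to 48.0 in the others.

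**Figure D4:**
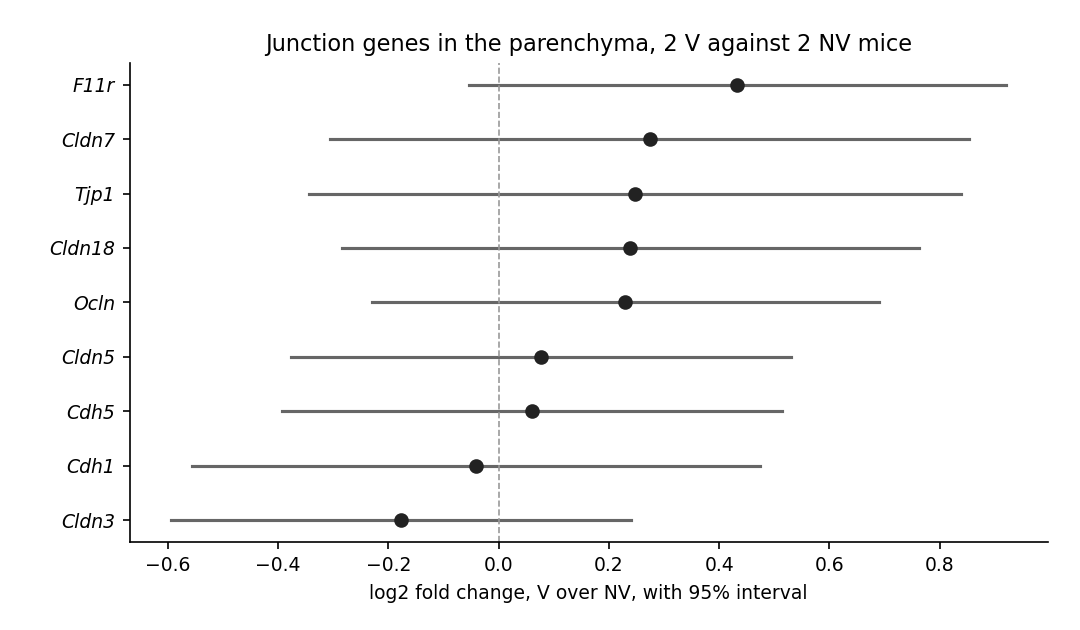
Log2 fold changes of 9 junction genes between 2 V and 2 NV mice in the parenchyma (points), with 95% intervals from edgeR's fit as lines. All 9 intervals include 0, and F11r, at 0.43, lies farthest to the right.

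Over whole sections, where the regions are mixed, 0 of 9 junction genes and 0% of 14570 genes were called by edgeR, with 0 of 9 and 248 in all at an unadjusted p under 0.05. DESeq2 called 0 of 9 and 8 in all. F11r had a log2 fold change of 0.48 (SE 0.28) and Cldn7 one of 0.48. With each mouse left out F11r ran from 0.18, without the V male, to 0.72. The V male section held no usable upper airway, which cannot be told apart from the group in these whole sections.

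In the upper airway the V female was compared with both NV mice, so the V group was 1 mouse and was taken to vary as the NV mice did. None of 9 junction genes was called by edgeR or DESeq2, against 1.82% of all 13170 genes called by edgeR. Cldn3 had 30.3 and 20.3 CPM in the NV male and female and 54.2 in the V female, a log2 fold change of 1.12 (95% interval 0.50 to 1.74, adjusted p = 0.061). Cldn7 had 19.1 and 5.08 against 27.6, a log2 fold change of 1.29 (adjusted p = 0.22), and Cdh1 38.6 and 20.3 against 47.5, at 0.72 (adjusted p = 0.43). Without the filter on low counts, again with 1 V mouse, the log2 fold changes of Cldn3 and Cldn7 were 1.14 and 1.31. Upper airway spots outside cardiac muscle numbered 22 and 76 in the NV male and female and 292 in the V female, and all 6 club cell markers, seen in each section, summed to 18171, 3740 and 32085 raw CPM in the upper airway. Their part in these values was not tested.

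Over the spots of a section, the genes whose pattern was most like each junction gene were found by the median over 4 sections of Pearson's r, among 8508 genes seen in at least 10% of spots of every section. Spots share a section, its depth and its mix of tissue, so these values are descriptions. Cldn18 was most like Hopx (r = 0.47) and Ager (0.47), both AT1 markers, and Sftpc (0.45). Cldn5 was most like Epas1 (0.47), Sftpc (0.45) and Sftpb (0.45), and Cdh5 most like Epas1 (0.40), Sftpc (0.39) and Ramp2 (0.39). Cldn3 was most like Wfdc2 (0.29), Cbr2 (0.28) and Sftpd (0.25), and Cldn7 most like Cbr2 (0.19), Wfdc2 (0.19) and Cxcl15 (0.16). Tjp1 and F11r were each most like Hopx, at 0.30 and 0.25, and Cdh1 most like Sftpb (0.31). Ocln reached 0.18 with Epas1. The r of Cldn18 with Hopx ran from 0.15 to 0.53 over the 4 sections. Some pairs changed sign between sections. Their lowest r was -0.070 for Cldn18 with Sftpc, -0.043 for Cldn5 and for Cdh5 with Sftpc, -0.030 for Cldn5 with Sftpb and -0.079 for Ocln with Epas1. The other pairs named over all spots were positive in every section. Within parenchyma spots Cldn5 was most like Epas1 (0.31), Tspan7 (0.29) and Ramp2 (0.28), Cldn18 most like Hopx (0.33), and Cldn3 most like Sftpc (0.19). Between junction genes the highest median r was that of Cdh5 with Cldn5, 0.34 over all spots and 0.19 over parenchyma spots.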

How the data were processed

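The authors inflated the lungs, cut cryosections and sequenced Visium libraries, which were counted with Space Ranger against the mouse genome GRCm38. Deposited values are raw counts of UMIs per gene and spot, with no normalization and no deposited cell types. Depth was 6957392 to 34308556 UMIs per section, and intervals from counts cover counting error only.

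UMIs were summed per mouse and group of spots. Genes were tested with edgeR 4.0.16 in R 4.3.3 (quasi-likelihood test, TMM scaling, filterByExpr), two-sided, with mouse as a block between spot groups of the same sections, and called where the p-value adjusted by the Benjamini-Hochberg method was under 0.05 and the log2 fold change exceeded 0.25 in either direction. DESeq2 1.42.0 and limma 3.58.1, with a pseudocount of 1 CPM, served as alternatives. Marker-rich spots were the 10% of a section with the highest mean of log2(1 + counts per 10000) over a marker list. Because groups of 2 mice are small, each mouse was left out in turn. The script was tested on simulated counts. The named genes were the 10 junction genes, the 3 genes most like each over spots, the markers beside a result and, from 7 junction lists (claudins, tight junction membrane, tight junction plaque, adherens junction, desmosome, endothelial junction and gap junction), at most 5 in each direction called in alveolar-rich against airway-rich or in endothelium-rich spots. Other list genes were named after their values were seen. Members and lists were chosen with earlier results of these data known. One gene of the junction lists is not reported here by name.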

Additional observations from a re-analysis of the deposited data

Results flagged for a closer look

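In 72 pairs of a gene and a spot comparison, the ratio of raw CPM between spot groups was examined for V and NV mice moving in opposite directions, and 4 pairs did so. How often other genes do so in the same comparisons was not examined, so 4 of 72 cannot be read as an excess. The difference between V and NV mice was not tested in any of the 4 pairs, and groups of 2 mice are too small for a search for outlying samples.

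In AT1-rich spots against the rest, Cldn3 had ratios of 1.19 and 1.51 in the NV male and female and 0.97 and 0.98 in the V male and female, so that the mean log2 ratio of V minus NV mice was -0.46. In ciliated-rich spots against the rest, Cdh5 had ratios of 1.11 and 1.52 in the NV mice and 0.95 and 0.75 in the V mice, a difference of -0.62. Cldn5 had ratios of 1.14 and 1.51 against 0.96 and 0.75 in the same spots, also a difference of -0.62. Upper airway spots made up 37.6% of ciliated-rich spots in the V female and 0% to 6.38% in the other sections, and their part was not tested. In endothelium-rich against alveolar-rich spots, Tjp1 had ratios of 1.04 and 1.13 in the NV mice and 0.99 and 0.94 in the V mice, a difference of -0.17.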

How the results depend on the processing

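Over every junction gene, comparison and alternative, 1097 values were computed, of which 920 kept their direction and their side of the threshold, 86 lost a call, 22 gained one and 69 changed sign; where a value changed and no cause is named, the cause was not tested. Counts of junction genes called moved as follows. Without mouse as a block, 0 were called in AT1-rich, AT2-rich, endothelium-rich, ciliated-rich, alveolar-rich against airway-rich, AT1-rich against AT2-rich and endothelium-rich against alveolar-rich spots. With spots thinned to 3000 UMIs, 1 was called in AT2-rich spots, 0 in ciliated-rich spots, 0 in alveolar-rich against airway-rich, 2 in AT1-rich against AT2-rich and 0 in endothelium-rich against alveolar-rich spots. Without the filter on low counts, 5 were called in club-rich, 4 in ciliated-rich and 2 in alveolar-rich against airway-rich spots, and 2 between V and NV in the upper airway. DESeq2 called 0 in ciliated-rich and 3 in endothelium-rich against alveolar-rich spots, and 0 were called in ciliated-rich spots with the top 20% of spots or with parenchyma spots only. Leaving out each mouse in turn gave 0 to 1 between V and NV in the parenchyma, 2 to 8 in AT1-rich, 1 to 5 in AT2-rich, 0 to 6 in endothelium-rich, 0 to 3 in ciliated-rich, 0 to 1 in alveolar-rich against airway-rich and 4 to 7 in endothelium-rich against alveolar-rich spots. The highest counts in AT1-rich, AT2-rich, endothelium-rich and ciliated-rich spots came without the V male. In those spots, in the same order, calls over all genes ran from 430 to 2379, 314 to 1967, 192 to 2612 and 138 to 804 with each mouse left out.

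None of the 69 changes of sign was of a gene called by edgeR in the comparison as reported or under the alternative. They include 5 genes in whole sections without the V male, and 6 in AT2-rich and 5 in endothelium-rich spots within parenchyma spots. Among those 6, Cdh5 had -0.20 (adjusted p = 0.0047, edgeR), short of the fold needed for a call. Of the changes for values reported above, between V and NV in the parenchyma, Cdh1 had 0.056 with limma on mean CPM and 0.022 with the parenchyma at 25% of the marker share, and with each mouse left out it ran from -0.20 to 0.14, Cdh5 from -0.024 to 0.15, Cldn5 from -0.017 to 0.17 and Tjp1 from -0.051 to 0.50. In AT1-rich spots Cldn3 had -0.18 within parenchyma spots and -0.016 without the filter, and ran from -0.069 to 0.11 with each mouse left out. With thinned spots, Cdh5 had -0.023 and Tjp1 -0.14 in AT1-rich against AT2-rich spots. In endothelium-rich against alveolar-rich spots Ocln had 0.30 with thinned spots and 0.037 within parenchyma spots, and with each mouse left out Ocln ran from -0.21 to 0.081 and Tjp1 from -0.070 to 0.011.

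Mice share only a number and sex across groups, and deviations of same-numbered mice correlated at 0.38 over whole sections and 0.079 in the parenchyma. With the number as a replicate block, 0 junction genes were called in either, and F11r had a log2 fold change of 0.43 in the parenchyma.

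Counts over all genes also moved. Between V and NV, DESeq2 called 9 genes in the parenchyma, 8 in whole sections and 60 in the upper airway against 0, 0 and 240 with edgeR. Without the filter these were 5 in the parenchyma and 645 in the upper airway, and with each mouse left out 0 to 1464 in the parenchyma and 0 to 811 in whole sections. AT1-rich, AT2-rich, endothelium-rich, club-rich and ciliated-rich spots gave 1368, 986, 1312, 108 and 476 genes with edgeR, and 355, 258, 245, 15 and 98 with thinned spots, 419, 164, 153, 66 and 29 within parenchyma spots, and 0 without the mouse block. DESeq2 called 702, 491, 567 and 283 in AT1-rich, AT2-rich, endothelium-rich and ciliated-rich spots. Without the filter, AT2-rich, club-rich and ciliated-rich spots gave 1525, 688 and 1244, and the top 20% gave 61 in club-rich spots. Alveolar-rich against airway-rich, AT1-rich against AT2-rich and endothelium-rich against alveolar-rich spots gave 170, 464 and 279, and 41, 142 and 47 with DESeq2, 65, 99 and 22 with thinned spots, and 0 without the block. The first of these gave 308 with the top 20%, 98 within parenchyma spots and 1076 without the filter. Shares of spots with a UMI moved beyond their interval for 36 of 40 values when thinned to 1000 UMIs and 37 of 40 without thinning.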
